A study of Mus musculus with 32 samples.

Results

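Ribosome-associated RNA from the spinal cord of male Chat Cre; Ribotag mice was compared between 18 and 12 months of age, across every gene whose counts averaged 5 or more. The comparison rests on 9 libraries, 5 of 18 months and 4 of 12 months, chosen by the age and sex on their labels, out of 32 in the series. A further 22 libraries shared the fit and its estimate of spread: 3 from males of 3 months, 5 from males of 24 months, and 4, 5 and 5 from females of 3, 12 and 18 months. Every group, the youngest included, carried the same genotype on its labels, with age and sex as the labelled differences. Per the paper's methods its mice were kept on a mixed genetic background, and the part of that background in the values below was not tested. Chat-Cre drives recombination wherever choline acetyltransferase is expressed, so the tagged ribosomal protein L22 is carried by all spinal cholinergic neurons, of which motor neurons are a large share, and not by motor neurons alone. Nothing in the labels says that each library came from a separate animal, and the p-values measure the spread between these libraries.

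Spinal motor neurons are large cholinergic cells that send their axons out of the spinal cord to skeletal muscle, and they keep choline acetyltransferase (Chat), the vesicular acetylcholine transporter (Slc18a3) and the choline transporter (Slc5a7) throughout life. In the RiboTag method a hemagglutinin-tagged ribosomal protein is expressed only in Cre-positive cells, and antibody against the tag pulls down ribosomes with the mRNAs bound to them. RNA of other cells that sticks to the beads is carried along at a low level, so markers of neighbouring cells are part of every such library.

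Total counts ran from 14593523 to 30959661 at 12 months and from 16873517 to 25079830 at 18 months, and their means were not separated by the test (exact permutation test, two-sided, p = 0.429, adjusted p = 0.643 over 3 library measures, smallest possible p 0.0159). Normalized counts below are counts divided by the library's effective size (total times its TMM factor) and scaled to the mean effective size. The motor neuron markers were present in all 9 libraries: Slc18a3 stood between 12280 and 16710 normalized counts at 12 months and between 5427 and 20520 at 18 months, and the transcription factors Mnx1 and Isl1 were never below 919 and 444. Chat varied more, from 150 to 1015 at 12 months and from 201 to 1591 at 18 months. In such bulk precipitates fewer cells of a type and less RNA per cell cannot be told apart. Slc5a7 differed by -0.05 on the log2 scale (SE 0.16), Mnx1 by 0.31 (SE 0.19) and Isl1 by -0.21 (SE 0.16). The Y-linked genes matched the label male in every library, with Ddx3y between 1514 and 3298, Eif2s3y between 315 and 696, Kdm5d between 80.1 and 173 and Uty between 41.8 and 155.

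5 of the 9 libraries stood apart in some respect, and results that rest on them are given with and without them. In 18-month replicates 1 and 3, genes of bone, cartilage and fibrillar collagen were high, and the X-inactivation RNA Xist, which males do not normally make, was at 61.9 and 61.1 normalized counts against 0 to 2.90 in the other 7 libraries and 35.0 to 655 in the female libraries of 12 and 18 months. 12-month replicate 1 held the highest share of counts from ribosomal protein genes (2.66% against 1.32% to 1.43% in the other 12-month libraries), the lowest Chat (150 normalized counts) and a limma sample weight of 0.157, where 1 is average. 18-month replicate 4 had the next lowest Chat (201), the lowest Slc18a3 (5427) and a weight of 0.167. 18-month replicate 2 was high in microglial genes, with the complement gene C1qa at 941 against 82.9 to 219 in the other 18-month libraries. Library totals moved with the first of these: replicates 1 and 3 were the pair of 18-month libraries under 20000000 counts.

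No gene passed edgeR's quasi-likelihood test at an adjusted p of 0.05 among 17481 tested (0% called), and the smallest adjusted p was 0.125. At an unadjusted p under 0.05 there were 1907 genes, 903 higher at 18 months (5.17% of those tested) and 1004 lower (5.74%). Normalized counts of the ages did not overlap in 238 genes that were higher (1.36%) and 241 that were lower (1.38%). Other tests called some genes: DESeq2's Wald test 97 (0.555%), 52 of them higher, and limma voom with sample quality weights 274 (1.57%), 181 of them higher, with 53 genes called by both. The median log2 fold change over all genes was 0.02, and the middle 50% of genes lay between -0.15 and 0.18. Within the 6 libraries over 20000000 counts, 3 of each age, edgeR called Tagln2 and the processed pseudogene Gm10709, both lower.

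With no gene called, those described first are the 10 higher and 10 lower protein-coding genes with the smallest unadjusted p whose counts did not overlap between the ages. Their adjusted edgeR p lay between 0.125 and 0.127, and DESeq2 called all 20 of them and limma voom 18. No sign turned when any single library was left out, but counts that do not overlap left almost no room for that. These 20 were picked by the comparison itself, and the other tests used the same counts. Their separation, these calls and the kept signs are therefore a description and not separate support.

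Nos1ap, which encodes an adaptor that binds neuronal nitric oxide synthase, was at 640, 658, 819 and 773 normalized counts in 12-month replicates 1 to 4 and at 1418, 1343, 1174, 1168 and 1143 in 18-month replicates 1 to 5. Every 18-month library lay well above every 12-month library, and the log2 difference was 0.79 (SE 0.17, edgeR adjusted p = 0.125). It was 0.82 within the libraries over 20000000 counts and 0.76 without 18-month replicates 1 and 3. Gm7694, a predicted protein-coding gene whose exons overlap those of Nos1ap on the same strand, followed it, at 27.3 to 40.6 at 12 months and 63.3 to 79.6 at 18 months, so the values of the pair cannot be told apart as 2 measurements. Hsd17b7, a hydroxysteroid dehydrogenase that also works in cholesterol synthesis, was at 886, 1157, 1103 and 1263 at 12 months and 1865, 1913, 1896, 1532 and 1377 at 18 months, a log2 difference of 0.64 (SE 0.14). Dcaf8, a substrate receptor of CUL4 ubiquitin ligases, stood at 2090, 2798, 3018 and 2974 against 3980, 3687, 3275, 3658 and 3705, a difference of 0.43 (SE 0.10). The exons of Dcaf8 overlap those of Pea15a, which differed by 0.09 (SE 0.11). Pex19, the chaperone that brings membrane proteins to peroxisomes, rounded off the genes of this kind on chromosome 1, at 1563 to 1970 against 2139 to 2498, a difference of 0.39 (SE 0.09).

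The other higher genes lay elsewhere, apart from Stk11ip. Rgp1, part of the exchange factor for the Golgi GTPase Rab6, was at 344, 337, 429 and 313 against 504, 495, 452, 521 and 441, a difference of 0.44 (SE 0.09), and its exons overlap Gba2 and Msmp. Arhgef25, a guanine nucleotide exchange factor, stood at 2037 ± 239 (SD, n = 4) against 2684 ± 129 (SD, n = 5), a difference of 0.40 (SE 0.09). Nin encodes ninein, which anchors microtubules at the centrosome, and was at 110 to 148 against 176 to 219, a difference of 0.58 (SE 0.14). These separations were narrow for some genes: the highest 12-month library of Stk11ip, an interactor of the kinase LKB1, held 302 and the lowest 18-month library 314. Ibsp, integrin-binding sialoprotein of bone, had the largest log2 difference of the 20, 3.44 (SE 0.70), from 14.5 to 26.4 at 12 months and 556, 44.5, 551, 40.8 and 30.9 at 18 months. Without 18-month replicates 1 and 3 it was 0.80.

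Of the 10 lower genes, Chchd1, a protein of the small mitochondrial ribosomal subunit, was at 1273, 777, 1055 and 711 at 12 months and 466, 559, 438, 336 and 553 at 18 months, a log2 difference of -1.02 (SE 0.20) and the smallest unadjusted p of the comparison. Ndufb2, a subunit of respiratory complex I whose exons overlap Braf, Gm16272 and Gm42420, was at 7878, 3564, 3806 and 3156 against 2749, 2656, 2644, 1365 and 3137. Its difference of -0.87 (SE 0.19) was -0.32 without 12-month replicate 1 and 18-month replicate 4, which held its highest and its lowest value. Ndufaf6, a complex I assembly factor, stood at 420 to 819 against 312 to 374 (log2 difference -0.63, SE 0.15). 2410015M20Rik, a gene of the inner mitochondrial membrane, stood at 1855 to 3859 against 1190 to 1710 (-0.80, SE 0.18). Ociad1, a mitochondrial and endosomal protein, stood at 10980 to 13780 against 8137 to 10180 (-0.34, SE 0.08).

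Psma6, a subunit of the 20S proteasome core, was at 7660, 4305, 3851 and 4161 against 3225, 3461, 3298, 2241 and 3831, a difference of -0.64 (SE 0.15) that was -0.25 without the same pair of libraries. Uxt, a component of prefoldin-like chaperone complexes, stood at 138 to 300 against 84.6 to 119 (-0.80, SE 0.19), and Elk1 exons overlap it. Rom1, a membrane protein of photoreceptor discs, had a narrow spread within each age, at 296 ± 15.8 (SD, n = 4) and 211 ± 4.23 (SD, n = 5), a difference of -0.49 (SE 0.11). Tagln2, a transgelin that binds actin, was at 490, 632, 370 and 618 against 178, 132, 368, 122 and 150, a difference of -1.49 (SE 0.34). 18-month replicate 3 all but reached the lowest 12-month library, and without replicates 1 and 3 the difference was -1.97. Nppc, the precursor of C-type natriuretic peptide, stood at 93.7 to 194 against 40.7 to 85.6, a difference of -1.10 (SE 0.23).

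**Figure D1:**
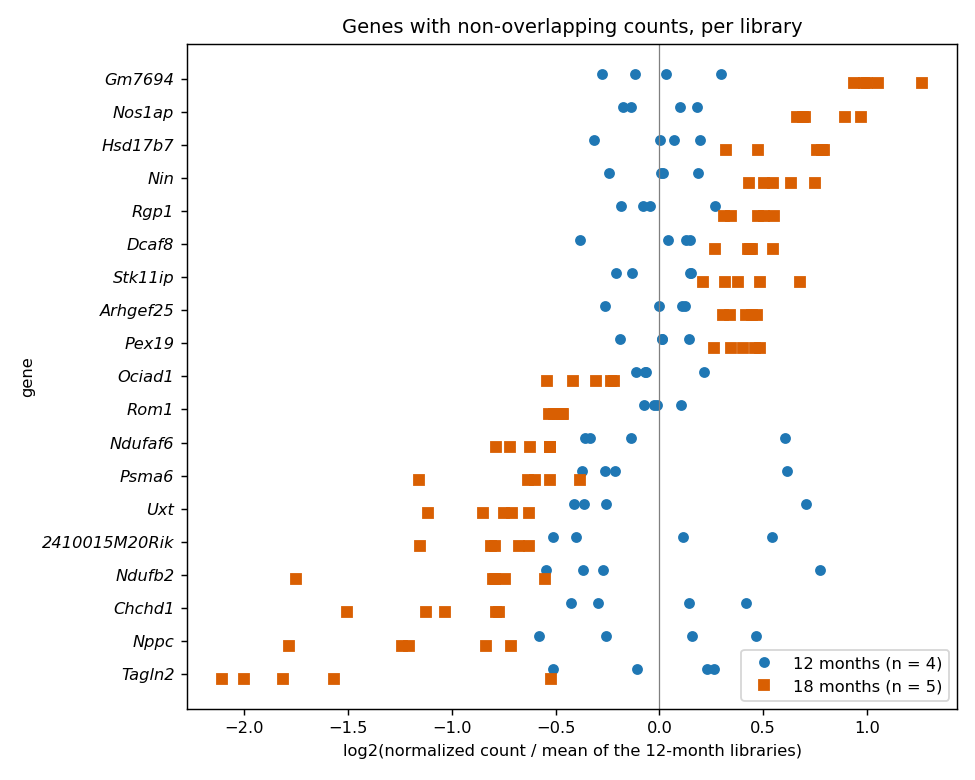
Normalized counts of 19 of the 20 genes in each of the 9 libraries, as log2 ratios to the mean of the 12-month libraries (x axis), 1 row per gene, with circles for the 4 libraries of 12 months and squares for the 5 of 18 months; Ibsp is left off because of its range. The squares lie to the right of all circles in the upper 9 rows and to the left in the lower 10, and the gaps are narrowest for Psma6, Ndufb2 and Tagln2.

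The higher and the lower genes also differed in length: the median annotated exon length was 5423.5 bases (2068 to 17005) for the 10 higher genes and 1376 bases (909 to 5628) for the 10 lower ones, against 3917 over the genes tested. Direction went with length over all genes too. The share that was higher ran from 31.6% in the shortest of 10 equal groups to 75.3% in the longest. A choice by direction was therefore not independent of length. Promoter sequence was looked at because several of the lower genes belong to the mitochondrial program, whose promoters are known for sites of nuclear respiratory factor 1 and of ETS factors. In RefSeq's promoter table (GRCm38.p6), 8 of the 10 higher and 8 of the 10 lower genes had an entry, and the 250 bases before each start were searched on both strands for the NRF1 consensus, CCGGAAG (ETS), CCAAT and TATAAA, each counted on its own. The NRF1 consensus stood in 0 of 9 promoters of the lower genes (0%) and in 1 of 11 of the higher ones (9.09%), against 3.74% of all promoters in the table and 6.97% of those of genes tested. The ETS letters stood in 3 of 9 promoters of the lower genes (33.3%) and in 1 of 11 of the higher ones (9.09%), against 6.91% of all promoters in the table and 11.7% of those of genes tested. CCAAT stood in 7 of 11 promoters of the higher genes (63.6%) and in 3 of 9 of the lower ones (33.3%), against 33.8% of all and 34.7% of those of genes tested. TATAAA stood in 1 of each (9.09% and 11.1%), against 12.4% of all and 6.88% of those of genes tested. The 4 promoters below belong to genes that the results turn on and hold no annotated exon base, with the motif letters in capitals.

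Nos1ap, chr1:170557111-170557360, minus strand, upstream of the inner of its 2 listed starts: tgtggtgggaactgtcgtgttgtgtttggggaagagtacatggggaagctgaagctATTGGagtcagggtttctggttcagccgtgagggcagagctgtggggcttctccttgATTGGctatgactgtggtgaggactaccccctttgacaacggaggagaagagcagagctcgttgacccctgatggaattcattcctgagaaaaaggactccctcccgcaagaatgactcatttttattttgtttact
Dcaf8, chr1:172147765-172148014, plus strand: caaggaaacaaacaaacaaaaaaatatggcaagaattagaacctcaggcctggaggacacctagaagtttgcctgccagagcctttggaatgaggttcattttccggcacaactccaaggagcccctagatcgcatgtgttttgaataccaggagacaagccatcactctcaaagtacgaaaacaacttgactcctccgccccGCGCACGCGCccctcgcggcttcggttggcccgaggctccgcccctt
Ndufb2, chr6:39592315-39592564, plus strand: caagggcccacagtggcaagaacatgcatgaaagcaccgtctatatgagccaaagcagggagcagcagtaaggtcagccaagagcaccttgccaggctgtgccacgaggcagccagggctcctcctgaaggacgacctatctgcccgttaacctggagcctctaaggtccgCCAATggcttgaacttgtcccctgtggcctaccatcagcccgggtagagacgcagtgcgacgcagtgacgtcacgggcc
Psma6, chr12:55383972-55384221, plus strand: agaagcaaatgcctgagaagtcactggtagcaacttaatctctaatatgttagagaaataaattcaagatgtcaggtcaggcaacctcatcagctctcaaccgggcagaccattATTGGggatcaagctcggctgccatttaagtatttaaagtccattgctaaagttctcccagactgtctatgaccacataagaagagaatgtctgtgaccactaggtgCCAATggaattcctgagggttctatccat

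The capitals mark CCAAT or its complement in Nos1ap, Ndufb2 and Psma6 and the NRF1 letters in Dcaf8. A match of letters is not a bound site, and the higher and lower genes both hold CCAAT here.

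Of the 20 genes, 8 lie on chromosome 1, which holds 1079 of the 17465 tested genes with a known position. When the genome was divided into 541 windows of 5 Mb, a step taken after the values were seen, the window of chromosome 1 from 170 to 175 Mb held 7 of the 116 genes with an unadjusted edgeR p under 0.001. It contains 68 tested genes, so 10.3% of them passed, against 0.664% over all genes, and 26.5% had a p under 0.05. The next window, on chromosome 9 from 105 to 110 Mb, held 4 such genes among 109. The 7 were Nos1ap, Gm7694, Dcaf8, Pex19 and Tagln2, described above, with Uhmk1, a kinase that phosphorylates splicing factor 1, and Nectin4, a cell adhesion molecule. Uhmk1 was at 10470, 13780, 13700 and 14410 at 12 months and 17690, 19370, 17960, 19780 and 14380 at 18 months, a log2 difference of 0.45 (SE 0.10) with the highest 12-month library just above the lowest 18-month library. Nectin4 was at 704, 1214, 1157 and 1392 against 1798, 2041, 1497, 2660 and 1317, a difference of 0.74 (SE 0.19) with overlapping ages.

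Other genes of that window moved in step without reaching the same p. Uap1, which makes UDP-N-acetylglucosamine, was at 1325 to 1384 in the 4 libraries of 12 months and 1685 to 1842 in those of 18 months, a difference of 0.36 (SE 0.10). Copa, the alpha subunit of the COPI vesicle coat, was at 2489 to 2717 against 3071 to 5183, a difference of 0.64 (SE 0.20), and its exons overlap Ncstn. In the window 13 genes with a p under 0.05 were higher and 5 lower, and Hsd17b7 lies just before it. In the female libraries of the same ages 3 genes of the window had a p under 0.001, namely Nos1ap, Gm7694 and Copa, with log2 differences of 0.87, 0.89 and 0.71. Here too Nos1ap and Gm7694 are not separate measurements. The direction in females was the same for all 7 genes, and for Pex19 the female difference was 0.06.

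The pair of large gene groups with the most uniform direction were those of translation and oxidative phosphorylation. Of 77 genes for cytosolic ribosomal proteins, 75 were lower at 18 months, 36 with an unadjusted p under 0.05 (background 5.74% of genes) and 11 without overlap (1.38%), and none was called after adjustment by edgeR. Their median log2 difference was -0.50 against 0.02 over all genes. Of 74 nuclear genes for the respiratory chain, 73 were lower, 26 with a p under 0.05 and 3 without overlap, with a median of -0.38. DESeq2 called 2 of the 77 and 5 of the 74 (background 0.555% of all genes). Limma voom called 0 and 2 (background 1.57%). Counts from ribosomal protein genes made up on average 1.70% (SD 0.646, n = 4) of the younger and 1.23% (SD 0.278, n = 5) of the older libraries (exact permutation test, two-sided, p = 0.159, adjusted p = 0.476).

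Rpl3, a protein of the large subunit, was at 12320, 8748, 9965 and 9500 at 12 months and 8135, 8137, 7672, 7220 and 8573 at 18 months, with a log2 difference of -0.35 (SE 0.09). The ages did not overlap for this gene, and 12-month replicate 1 was the highest library. Atp5c1, the gamma subunit of ATP synthase, was at 11070, 7178, 6719 and 7130 against 5802, 6123, 5657, 4000 and 6885 (-0.50, SE 0.12). Sdha, a subunit of complex II, was the single member of the respiratory list that was higher, with a difference of 0.04 (SE 0.07).

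How much of this rests on the library with the most ribosomal protein counts can be read directly. Without 12-month replicate 1 the median was -0.15 for the ribosomal proteins and -0.14 for the respiratory chain. Without both that library and 18-month replicate 4, which has the second highest level of the list, the medians were -0.31 and -0.33. Over all genes the median log2 difference was -0.21 in the shortest of 10 equal groups by exon length (57 to 1130 bases) and 0.12 in the longest (from 9408 bases), and the share of genes that were higher went from 31.6% to 75.3%. Without 12-month replicate 1 that span was -0.03 to 0.07. After an offset for length in each library the medians of the lists were -0.35 and -0.25. The part of length in these differences was not tested further.

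The respiratory chain genes encoded in mitochondria behaved otherwise. Of 10, 6 were higher and 4 lower (median 0.05). That median was -0.35 without 18-month replicates 1 and 3 and 0.54 without 12-month replicate 1 and 18-month replicate 4. Their share of counts averaged 0.162% (SD 0.0555, n = 4) in the younger and 0.169% (SD 0.0856, n = 5) in the older libraries (exact permutation test, two-sided, p = 0.897, adjusted p = 0.897). mt-Nd5, a complex I subunit, differed by 0.47 (SE 0.49), with 18-month replicate 3 the highest library at 3382, and mt-Nd2 by -0.19 (SE 0.34), with 12-month replicate 1 the highest at 5596.

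**Figure D2:**
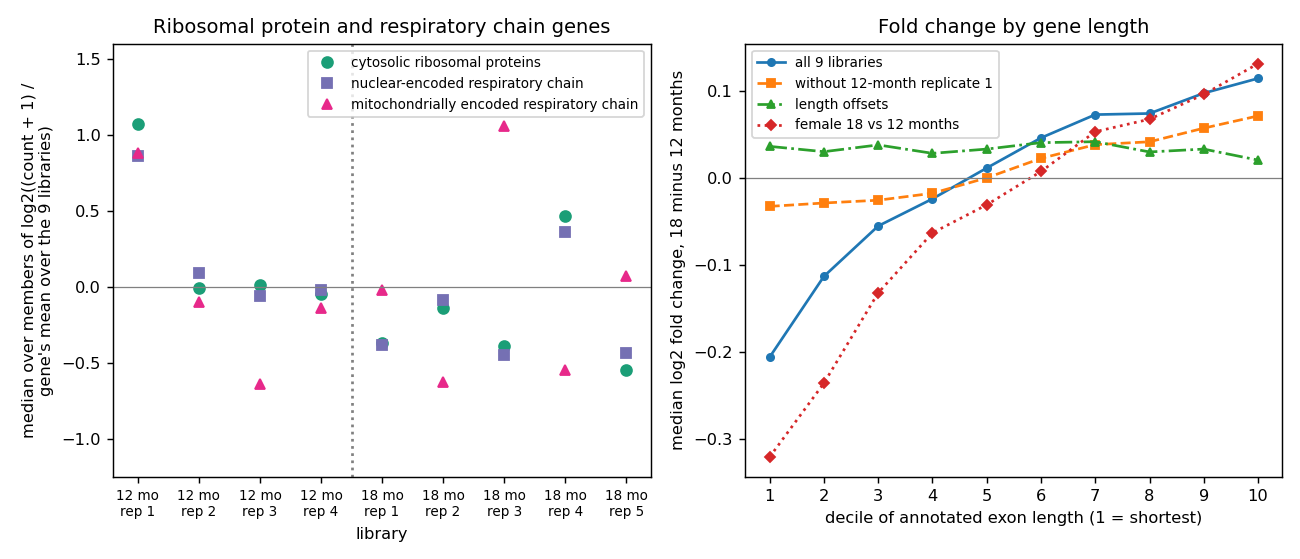
Left, the median over members of 3 gene lists of the log2 ratio of a library's normalized count plus 1 to the gene's mean over the 9 libraries (y axis), for each library (x axis, dotted line between the ages). Right, the median log2 fold change of all tested genes in 10 groups by exon length (x axis, shortest first) for 4 versions of the comparison. Ribosomal protein and nuclear respiratory chain genes are at 1.07 and 0.86 in 12-month replicate 1 and at 0.47 and 0.36 in 18-month replicate 4, and below 0 in the other 18-month libraries; the slope by length is steep with all 9 libraries and in females and close to level with length offsets.

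Rpl29, another large-subunit protein, had the most negative difference of the 77 ribosomal protein genes, -2.31 (SE 0.70), and its libraries fell at several separate levels. At 12 months it was at 3394, 1639, 810 and 1727, and at 18 months at 788, 83.0, 892, 63.3 and 103. A middle level thus held 12-month replicate 3 and 18-month replicates 1 and 3, and male replicates 1 and 3 of 3 months were also near it, at 781 and 890. The lowest level held 18-month replicates 2, 4 and 5. The same 3 libraries of 18 months, replicates 2, 4 and 5, were near 0 for the processed pseudogene Gm10709, which stood at 0.87, 0 and 3.53 there and at 49.3 or above in the other 6. 1 of 5 male libraries of 24 months (84.6) and 1 of 5 female libraries of 18 months (115) shared the low level of Rpl29, and no library of 3 or 12 months did. The unnamed gene 9430037G07Rik was at 21.4 to 47.7 at 12 months and at 0, 0, 26.7, 0 and 0.88 at 18 months. The processed pseudogene Gm11868 was at 1.45 to 5.11 at 12 months and 115, 161, 82.7, 45.9 and 140 at 18 months, and at 83.5, 4.71 and 84.0 in the 3 male libraries of 3 months. These genes were picked after their values were seen; reads of near-identical copies cannot be assigned with certainty, and Rps3a1, 1 of the 2 ribosomal protein genes that were higher (0.35, SE 0.36), has copies of the same kind.

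The matrix and skeletal genes gave the largest folds, and did so through 2 libraries. Where single members of a list are named from here on with no other reason given, they are those with the largest positive and negative differences among members that averaged at least 50 normalized counts over the 9 libraries. Of 12 bone and cartilage markers all 12 were higher, 9 with a p under 0.05 (background 5.17%) and 2 without overlap (1.36%), with a median log2 difference of 3.36. Of 38 collagens and matrix genes 34 were higher, 21 with a p under 0.05 and 3 without overlap, with a median of 1.07. DESeq2 called 5 of the 12 and 7 of the 38 (background 0.555% of all genes). Summed over the bone list the normalized count was 981 to 1432 at 12 months, 4079 and 4854 in 18-month replicates 1 and 3, and 1268 to 1450 in the other 18-month libraries.

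Col1a1, a chain of type I collagen, was at 31.1, 6.38, 31.9 and 34.1 at 12 months and 4137, 35.8, 5767, 60.2 and 5.29 at 18 months, and its difference of 6.31 (SE 1.43) was 0.40 without replicates 1 and 3. Col1a2, the partner chain, stood at 23.4 to 104 at 12 months and 7491, 75.1, 9815, 130 and 22.9 at 18 months. Col2a1, the collagen of cartilage, was at 172 and 158 in replicates 1 and 3 and between 1.42 and 14.3 in the other 7 libraries. The osteoclast genes Acp5 and Ctsk showed the same libraries, at 616 and 689 and at 735 and 725, against at most 6.82 and 27.6 elsewhere. Bglap, which encodes osteocalcin, had no more than 1 read in any 12-month library and 155 and 224 normalized counts in replicates 1 and 3, so its mean was at least 26.0-fold higher at 18 months, measured against a floor of 3 counts per library, and the other 18-month libraries held 0.88 or less. Sparc, a matrix glycoprotein, differed by 0.69 (SE 0.60), and Col8a1 by -0.26 (SE 0.25).

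Without replicates 1 and 3 the median of the bone list was 0.06 and that of the matrix list 0.29. Among the 6 libraries over 20000000 counts they were -0.03 and 0.34. Xist moved with these genes, as did Anxa1, a calcium-dependent phospholipid-binding protein listed with the response to axotomy, at 213 and 223 against 0 to 25.5 in the other libraries. Meningeal fibroblast markers were higher in 8 of 11 (median 0.34; -0.10 without replicates 1 and 3), and of their defining genes Dcn stood at 309 to 472 against 328 to 684 and Lum at 14.9 to 45.2 against 30.0 to 299. The part of RNA from skeletal tissue in the 18-month group was not tested.

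**Figure D3:**
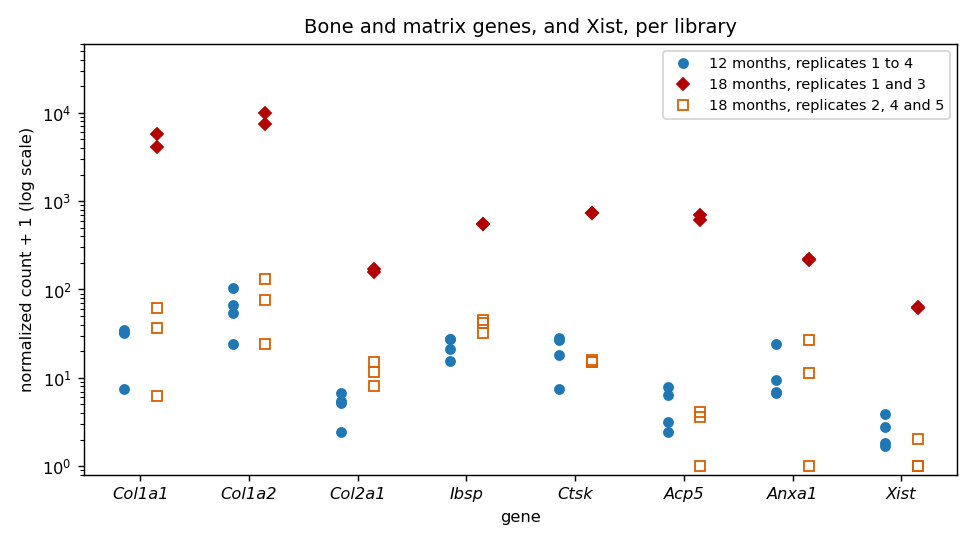
Normalized counts plus 1 on a log scale (y axis) of 7 bone, cartilage, matrix and related genes and of Xist (x axis) in each library, with circles for the 4 libraries of 12 months, filled diamonds for 18-month replicates 1 and 3 and open squares for replicates 2, 4 and 5. The diamonds stand above every other point for each gene, while the open squares lie among or close to the circles.

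Microglial markers were higher in 17 of 18 (median 0.91), 2 with a p under 0.05. Their summed normalized count was 1065 to 2633 at 12 months, 5709 in 18-month replicate 2 and 1286 to 1418 in the other 4, and without replicate 2 the median was 0.16. The fractalkine receptor Cx3cr1 differed by 1.26 (SE 0.79). Defining microglial genes were present in all 9 libraries, with Csf1r at 46.9 to 391, P2ry12 at 5.67 to 49.8 and Tmem119 at 12.1 to 168.

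Complement genes were higher in 20 of 26, with a median of 0.47, and in 2 a p was under 0.05. C1qa was at 357, 117, 115 and 108 at 12 months and 115, 941, 85.2, 219 and 82.9 at 18 months (0.74, SE 0.89). Cd59a, which blocks the terminal complex, differed by -0.23 (SE 0.22). The complement median was 1.09 without 12-month replicate 1, 0.21 without 18-month replicate 2 and 0.19 without 18-month replicates 1 and 3.

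Of the microglial and astroglial genes that respond to injury, Tyrobp, an adaptor of microglial receptors, was at 49.8, 9.93, 18.8 and 17.0 against 41.7, 97.8, 38.2, 17.3 and 18.5 (0.84, SE 0.87). Apoe, the lipid carrier, was at 10710, 1947, 2373 and 2365 against 2397, 9242, 2413, 2681 and 2277, so that 1 library of each age was high and the difference was -0.19 (SE 0.71). Gfap, the astrocyte filament, differed by 0.28 (SE 0.58), Vim by 0.92 (SE 0.47), Cd63, a tetraspanin of late endosomes, by -0.12 (SE 0.32) and Serpinb1a, a protease inhibitor, by -0.18 (SE 0.48). Vim was highest in 18-month replicates 1 and 3, at 806 and 673 against 128 to 304 elsewhere.

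Chemokine, cytokine and inflammatory receptor genes were higher in 23 of 27 (median 0.42, or 0.29 without 18-month replicates 1 and 3; 3 higher and 1 lower with a p under 0.05). The chemokine Cxcl12 was at 168 and 156.4 in 18-month replicates 1 and 3 and at 22.1 to 56.5 elsewhere, and differed by 1.07 (SE 0.59), or -0.02 without them. The interleukin Il18 differed by -0.94 (SE 0.36). MHC genes were higher in 14 of 22 (median 0.09; -0.04 without 18-month replicates 1 and 3), with named members from H2-K1 (0.46, SE 0.31) to Psmb10 (-0.32, SE 0.27). Interferon-response genes were higher in 17 of 29 (median 0.11), with named members from Xaf1 (0.64, SE 0.50) to Ifi27 (-0.43, SE 0.20).

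Stat3, the transcription factor downstream of interleukin-6 family receptors, was at 3241, 3478, 3563 and 3587 at 12 months and 3995, 3719, 4289, 4485 and 4459 at 18 months. The ages did not overlap, in males or in females, and the difference was 0.27 (SE 0.11, edgeR adjusted p = 0.312). Exons of Stat3 overlap those of Stat5a. Socs3, its target and inhibitor, was at 27.5 to 44.3 against 80.8, 28.0, 107, 22.5 and 47.6 (0.66, SE 0.35).

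Blood cell markers varied between libraries of the same age. Neutrophil and myeloid markers were higher in 11 of 12 (median 1.68; 0.54 without 18-month replicates 1 and 3), with Ngp, a granule protein, at 8.70 to 61.4 against 510, 43.7, 494, 159 and 0.88, while Lcn2 differed by -0.33 (SE 0.55). Erythroid markers were higher in 6 of 7 (median 0.47; -0.13 without 18-month replicates 1 and 3), with Hba-a1 at 0.47 (SE 0.97) and Hbb-bs at -0.03 (SE 1.04). B and plasma cell markers were higher in 8 of 9 (median 1.03; 0.97 with a gene at its floor set to its bound), with Ighm at -0.07 (SE 0.39), and the 2 T cell markers tested were higher (median 0.40). DESeq2 called 1 gene of these blood cell lists (background 0.555% of all genes), the immunoglobulin light chain gene Iglc2, named after its values were seen. Iglc2 was at 0 in all 12-month libraries and at 1.26, 0.87, 3.82, 6.12 and 0 at 18 months, too few counts for a fold.

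**Figure D4:**
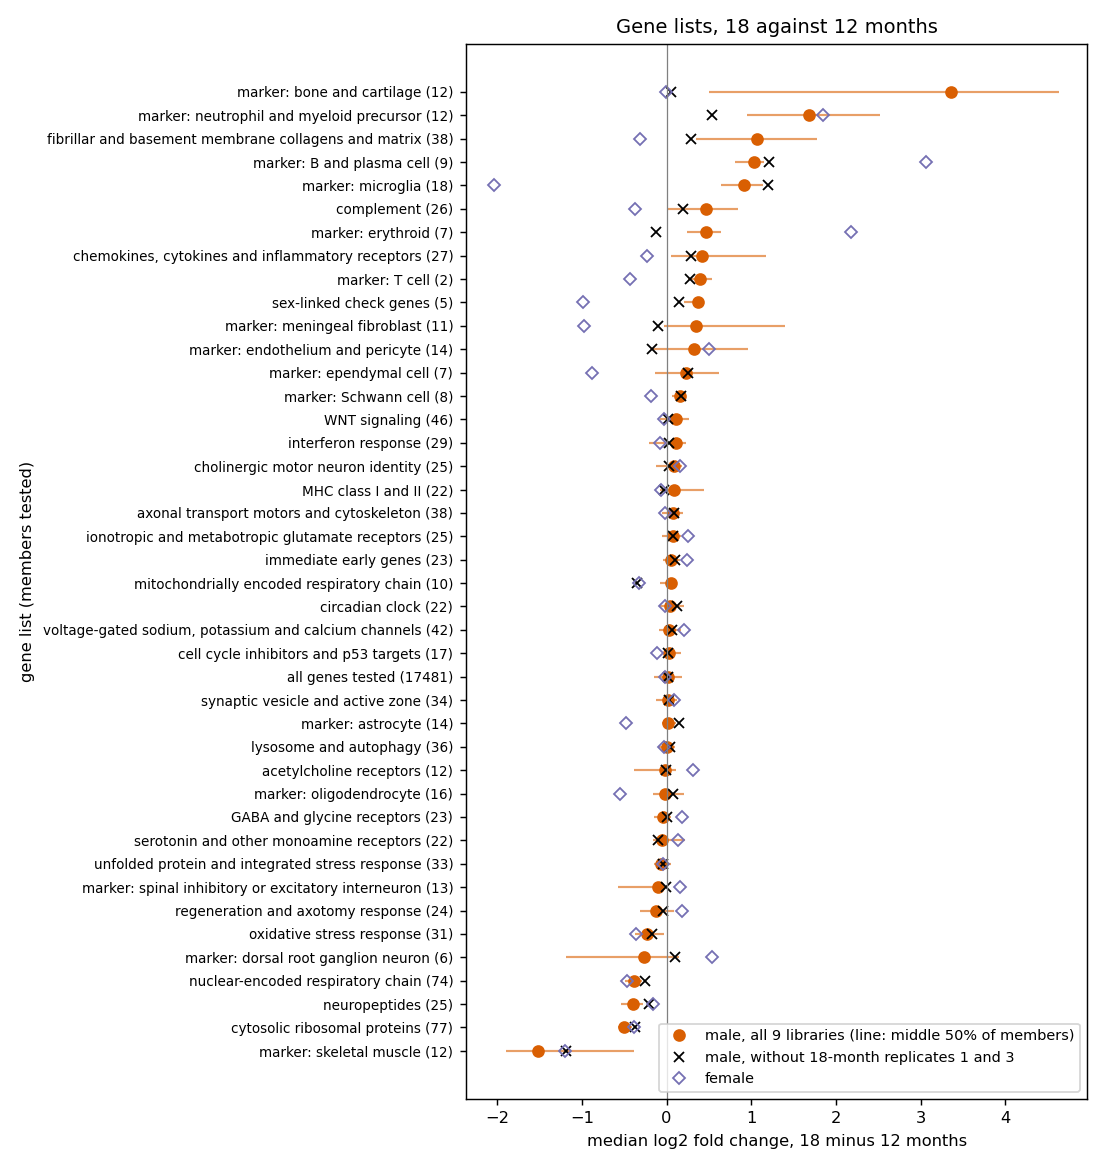
Median log2 fold change of each gene list at 18 against 12 months (x axis), 1 row per list with the number of members tested, as filled circles for males with a line over the middle 50% of members, crosses for males without 18-month replicates 1 and 3, and open diamonds for females. Bone and cartilage markers go from 3.36 to 0.06 without those 2 libraries, ribosomal protein and nuclear respiratory chain lists stay below 0 in all 3 versions, and microglial markers are at 0.91 in males and -2.04 in females.

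Of 25 genes of cholinergic motor neuron identity 14 were higher and 11 lower (median 0.09), and 2 had a p under 0.05. Chat itself was at 150, 688, 787 and 1015 against 1269, 652, 1229, 201 and 1591, a difference of 0.58 (SE 0.59), with the low values in 12-month replicate 1 and 18-month replicate 4. Slc18a3, which is transcribed from within the first intron of Chat, differed by -0.01 (SE 0.26). Calcb, a calcitonin gene-related peptide, differed by -0.37 (SE 0.36).

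Glutamate receptor genes were higher in 17 of 25 (median 0.07), with named members from Grin3b (0.60, SE 0.79) to Grm2 (-0.37, SE 0.27). GABA and glycine receptor genes were higher in 11 of 23 (median -0.04), with named members from Gabrb2 (1.01, SE 0.71) to Glra2 (-0.41, SE 0.18). Acetylcholine receptor genes were higher in 5 of 12 (median -0.02), with named members from Chrna7 (0.65, SE 0.73) to Chrna3 (-0.47, SE 0.30).

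Chrna7 was at 19.6 in 12-month replicate 1 and 5.10 in 18-month replicate 4, and at 76.9 to 230 elsewhere, so it was lowest in the libraries with the least Chat. Serotonin and other monoamine receptor genes were higher in 10 of 22 (median -0.06), with named members from Adra1d (0.31, SE 0.32) to Htr1a (-0.51, SE 0.24), and Htr1b differed by -0.10 (SE 0.20). Voltage-gated channel genes were higher in 23 of 42 (median 0.03; 4 with a p under 0.05, all higher), with named members from Cacna1d (0.38, SE 0.20) to Kcna4 (-0.47, SE 0.23).

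Neuropeptide genes had a uniform direction, with 23 of 25 lower and a median of -0.39, and 4 had a p under 0.05, all lower (background 5.74%). Nppc, described above, was the lowest of them by this measure, and Pdyn, the dynorphin precursor, differed by 0.40 (SE 0.32). The summed count of the list did not separate the ages: it was 25375 to 66005 at 12 months and 19748 to 65519 at 18 months, highest in 12-month replicate 1 and 18-month replicate 4. Nor did the median log2 ratio to the gene's mean. It was 0.56, 0.52, -0.13 and 0.03 in 12-month replicates 1 to 4 and -0.36, 0.18, -0.63, 0.71 and -0.55 in 18-month replicates 1 to 5. The part of gene length in this list was not tested.

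Genes of axonal transport and the cytoskeleton were higher in 22 of 38 (median 0.07), with named members from the dynein heavy chain Dync1h1 (0.33, SE 0.14) to the dynactin subunit Dctn3 (-0.42, SE 0.13), which did not overlap between the ages. Synaptic vesicle and active zone genes were higher in 18 of 34 (median 0.02), with named members from Unc13b (0.63, SE 0.28) to the glycine transporter Slc6a5 (-0.88, SE 0.40). Slc6a5 is a marker of glycinergic interneurons and was at 335, 2633, 2507 and 1056 against 874, 1447, 655, 749 and 706. The interneuron list as a whole was lower in 10 of 13 (median -0.11). Its inhibitory transmitter genes Gad1, Gad2 and Slc32a1, picked after their values were seen, differed by -0.57 (SE 0.22), -0.62 (SE 0.22) and -0.73 (SE 0.35). Each was highest in 12-month replicates 2 and 3. In females these differences were 0.07, 0.44 and -0.004.

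Regeneration and axotomy genes were lower in 16 of 24 (median -0.13). Atf3, a transcription factor induced by axon injury, was at 104, 214, 39.1 and 35.8 against 79.6, 119, 80.1, 140 and 53.8 (-0.08, SE 0.70). Sprr1a, which promotes axon outgrowth, was at 97.0, 316, 15.9 and 43.5 against 36.6, 141, 33.1, 225 and 56.4 (-0.29, SE 1.00), and Npy, neuropeptide Y, at 180, 236, 26.1 and 17.9 against 22.7, 67.2, 40.7, 132 and 30.0 (-0.99, SE 0.91). For all 3 the spread within an age was wider than the difference between ages, with 12-month replicate 2 the highest library.

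Genes of the unfolded protein and integrated stress response were lower in 22 of 33 (median -0.07), with named members from Nupr1 (0.53, SE 0.61) to Phgdh (-0.64, SE 0.62). Oxidative stress genes were lower in 23 of 31 (median -0.24; -0.06 without 12-month replicate 1), with named members from Keap1 (0.19, SE 0.10) to the peroxiredoxin Prdx5 (-0.52, SE 0.19). Cell cycle inhibitors and p53 targets were higher in 11 of 17 (median 0.03), with named members from Cdkn2a (1.13, SE 0.63) to Igfbp3 (-0.23, SE 0.35), and Cdkn2a, which encodes the senescence marker p16, was at 83.8 ± 29.1 (SD, n = 4) against 87.1, 153, 102, 455 and 117.

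WNT genes were higher in 30 of 46 (median 0.11), with named members from Axin2 (0.40, SE 0.20) to Frzb (-0.50, SE 0.19), and Sfrp1, a secreted WNT inhibitor, differed by -0.33 (SE 0.16). Lysosome and autophagy genes were higher in 19 of 36 (median 0.01), with named members from Ctss (0.96, SE 0.86), highest in 18-month replicate 2, to Map1lc3a (-0.22, SE 0.13). Immediate early genes were higher in 15 of 23 (median 0.05), with named members from Fosl1 (0.42, SE 0.40) to Dusp1 (-0.28, SE 0.19), and clock genes in 14 of 22 (median 0.04), with named members from Per3 (0.60, SE 0.24) to Nfil3 (-0.34, SE 0.21). Ppp1r1c, a protein phosphatase inhibitor, differed by -0.04 (SE 0.20).

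Markers of other spinal cell types completed the lists. Astrocyte markers were higher in 9 of 14 (median 0.02), with named members from Gja1 (0.47, SE 0.65) to Agt (-0.42, SE 0.77), and oligodendrocyte markers in 8 of 16 (median -0.02), with named members from Aspa (0.45, SE 0.54) to Ugt8a (-0.31, SE 0.50). Schwann cell markers were higher in 7 of 8 (median 0.16), with Gldn at 0.21 (SE 0.19) and Sox10 at 0.00 (-0.0037, SE 0.57), and endothelial and pericyte markers in 10 of 14 (median 0.32; -0.17 without 18-month replicates 1 and 3), with named members from Rgs5 (0.43, SE 0.32) to Vtn (-0.85, SE 0.71). Ptgds of the meningeal list differed by -0.79 (SE 0.73). Ependymal markers were higher in 5 of 7 (median 0.23), and their ciliary factor Foxj1 differed by 0.31 (SE 0.11).

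Skeletal muscle markers were lower in 9 of 12, 6 with a p under 0.05 (background 5.74%), with a median of -1.51, or -1.19 without 18-month replicates 1 and 3. Acta1, skeletal actin, was at 134, 251, 7.25 and 93.7 against 7.58, 38.4, 10.2, 109 and 2.65 (-1.86, SE 0.89), and Ckm, muscle creatine kinase, spanned 10.2 to 175 and 2.65 to 61.2. 12-month replicate 3, at 7.25 and 10.2, was among the low libraries for both. Dorsal root ganglion markers were lower in 4 of 6 (median -0.26; 0.10 without 18-month replicates 1 and 3), with named members from Isl2 (0.24, SE 0.09) to Tac1 (-0.39, SE 0.42). The defining sensory genes were low: Scn10a was at 0 in 5 of the 9 libraries and at most at 11.2, and Trpv1 was at most at 16.3. Avil was at 33.8 in 12-month replicate 1 and at 2.54 to 8.84 elsewhere, a difference of -1.45 (SE 0.67). Bglap was at 0 in 4 libraries and the B cell gene Cd79a in 3, and every other defining marker was detected in all 9.

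The long noncoding RNAs Miat and Snhg11, picked after their values were seen, were low in 3 of the 12-month libraries. Miat was at 540, 233, 280 and 157 at 12 months and 687, 599, 781, 743 and 477 at 18 months (1.12, SE 0.28), with 530 to 735 in males of 3 months. Snhg11 was at 2667, 596, 538 and 480 against 1607, 1697, 2007, 2145 and 1858 (0.80, SE 0.38), and 1262 to 1549 in males of 3 months. 12-month replicates 2 to 4 were therefore low for both against every male library of 3, 18 and 24 months, while replicate 1 was not.

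Neat1, the scaffold RNA of paraspeckles, was at 1484, 285, 874 and 444 against 2018, 1904, 1905, 1975 and 1230 (1.23, SE 0.42), Meg3 at 11390, 2379, 1497 and 1514 against 6934, 6798, 8256, 11920 and 4527 (0.87, SE 0.50), and Malat1, retained in the nucleus, at 3963, 906, 538 and 697 against 1368, 1196, 1776, 4101 and 1004 (0.31, SE 0.51). Leng8, a protein-coding gene, was at 456, 150, 222 and 142 against 356, 353, 394, 360 and 399 (0.62, SE 0.23). Limma voom, which gave 12-month replicate 1 a low weight, called all of these but Malat1, and Miat, Snhg11 and Leng8 were among the 6 genes edgeR called when that library was left out. Bhlhe22, a transcription factor of dorsal interneurons, went the other way, at 115, 318, 326 and 289 against 205, 218, 178, 222 and 195 (-0.36, SE 0.18).

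The 18 to 12 month difference could be set beside that of female mice, whose libraries are separate. No gene passed the edgeR test of the male minus female difference (0% of 17481 called), 1022 had an unadjusted p under 0.05 (5.85%). Across all genes the 2 sets of fold changes had a Pearson correlation of 0.20, which is a description across genes, not over independent replicates. Of the 1907 genes with a male p under 0.05, 74.9% had the same sign in females, against 61.6% of all genes. Counted without a limit on p, 20 genes did not overlap between the ages in both sexes and in the same direction. Rgp1, Rom1, Tagln2 and Stat3 were among these 20, whose unadjusted male edgeR p ran up to 0.0996. In males alone, 238 higher and 241 lower genes of the 17481 did not overlap. The number of shared genes that chance would give was not tested.

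Of the 20 genes listed first, 19 had the same sign in females, the exception being Arhgef25 (-0.12). Nos1ap averaged 709 (SD 119.6, n = 5) in females of 12 months and 1297 (SD 309, n = 5) at 18 months, with overlap. The female log2 difference was 0.87 (SE 0.16, edgeR adjusted p = 0.0689), and the male minus female difference -0.08 (SE 0.23). Ribosomal protein and nuclear respiratory chain genes were lower in 75 of 77 and 68 of 74 in females, with medians of -0.39 and -0.46, and the female fold changes had the same slope by length, from -0.32 in the shortest group to 0.13 in the longest. Muscle markers had medians of -1.51 in males and -1.20 in females. Lists whose medians had opposite signs in the sexes included microglial markers (0.91 and -2.04), collagens and matrix (1.07 and -0.31) and complement (0.47 and -0.37), differences between the sexes that were not tested as lists.

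Levels at the neighbouring ages give the 18 to 12 month difference its place, although these comparisons share libraries and only the levels are given. Nos1ap was at 707 to 1041 in males of 3 months and 879 to 1476 at 24 months, so the 12-month libraries were the lowest on average and the 24-month libraries overlapped the range of 3 months. Rgp1 was at 441 to 453 and 422 to 574, and Stat3 at 2971 to 3790 and 3834 to 5757, the last with every 24-month library above every 12-month library. For the lower genes the 3-month levels lay mostly near the lower 12-month libraries: Chchd1 was at 580 to 741 at 3 months and 418 to 680 at 24 months, Ndufb2 at 3074 to 3197 and 2336 to 2805, and Psma6 at 3477 to 3993 and 3236 to 3680. Rom1 was at 253 to 323 at 3 months, 281 to 319 at 12, 205 to 215 at 18 and 197 to 324 at 24 months. Tagln2 was highest at 3 months, 794 to 1064, and at 24 months its 5 libraries spread from 180 to 1109.

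**Figure D5:**
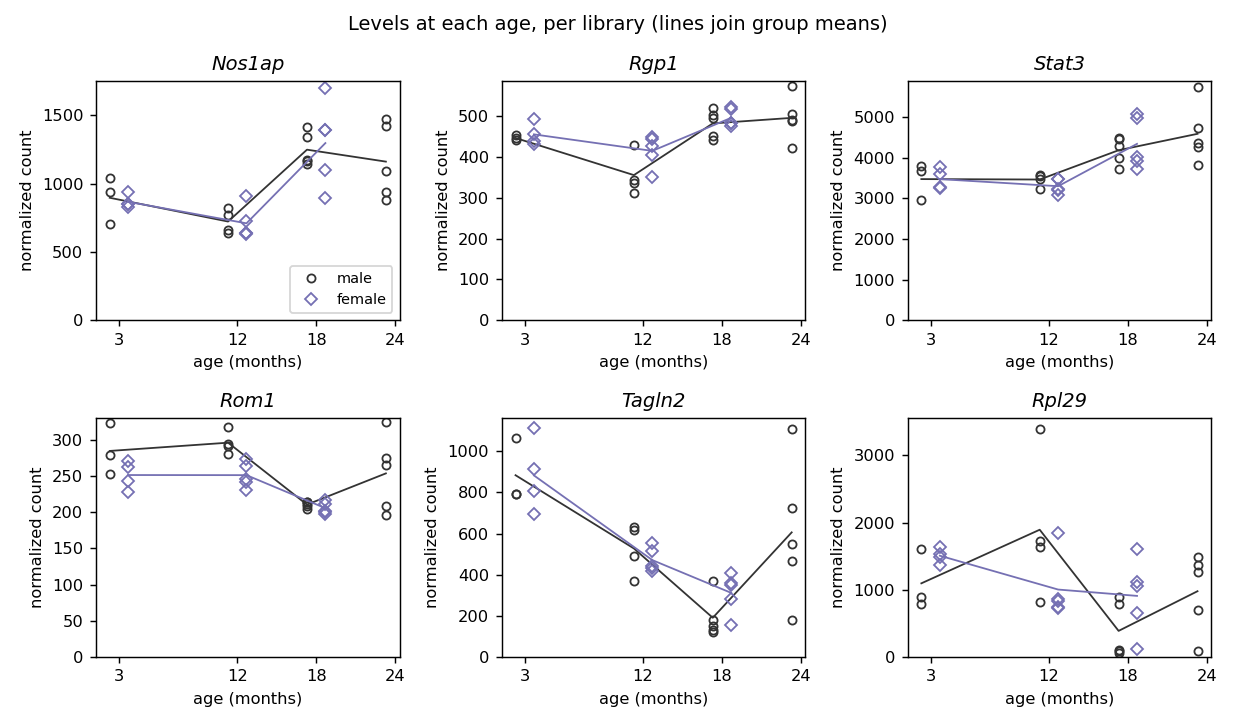
Normalized counts (y axis, from 0) of Nos1ap, Rgp1, Stat3, Rom1, Tagln2 and Rpl29 at each age in months (x axis, the sexes drawn slightly apart), with circles for male and diamonds for female libraries and lines joining group means; females of 24 months are not shown. Nos1ap, Rgp1 and Stat3 are higher at 18 than at 12 months in both sexes on average, Rom1 and Tagln2 are lower, and single libraries of 18 and 24 months stand at a low level of Rpl29.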

How the data were processed

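RNA bound to hemagglutinin-tagged ribosomes was precipitated from spinal cord and sequenced by the authors. Raw counts per Ensembl gene were deposited by the authors, who per their methods trimmed reads, aligned them with HISAT2, counted with HTSeq and left failed samples out of their analysis. Tool versions and the strand setting are not given in the sources used here, so values of overlapping or antisense genes are uncertain. Symbols came from GENCODE M21 for 54165 of 54232 identifiers.

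The members and gene lists were chosen with earlier results of these data known. Some genes are not reported here. Genes whose counts averaged 5 or more were tested with edgeR 4.0.16 (quasi-likelihood, TMM) over 31 libraries and 7 groups, in R 4.3.3, with Benjamini-Hochberg adjustment at 0.05. The 24-month female library was not used. DESeq2 1.42.0 and limma 3.58.1 (voom with sample weights) were alternatives, with other filters, samples, offsets and library sets. Library measures were compared by exact permutation tests. The tests were checked on simulated data with known changes.

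Named genes were the 10 higher and 10 lower protein-coding genes by p without overlap and with a mean of at least 50 normalized counts, the extreme members of each list above that level, genes the study names for these libraries, label checks, and genes said in the text to be picked after their values were seen. Folds against a group at 0 used a floor of 3 counts per library. Among 16 pairs of same-age libraries the mean chi-square per gene was 8.84 to 208, so none agreed within sampling noise.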

Additional observations from a re-analysis of the deposited data

Results flagged for a closer look

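In 43 of 266 groups of 4 or 5 libraries tested, the highest or lowest library stood farther from the nearest of the others, relative to the range of its group, than Dixon's 95% critical value. That value allows about 1 in 20 for independent groups. Here many genes were picked by their values and all share the same libraries, so 1 in 20 is no measure of chance for the 43. Of the 43, 26 came from 12-month replicate 1, and the values below are normalized counts unless a percentage is given. In 12-month replicate 1 the values that stood apart included Uxt at 299.8, Ndufb2 at 7878, Apoe at 10710, Ptgds at 3624, Sparc at 3419, Psma6 at 7660, Meg3 at 11390 and Anxa1 at 23.1. Others in that library were Fosl1 at 25.8, Prdx5 at 29210, Cd63 at 1120, Dctn3 at 8367, Ociad1 at 13780, Agt at 398, Cd59a at 5299 and C1qa at 357. The remaining genes there were Ctss at 369, Snhg11 at 2667, Serpinb1a at 322, Htr1b at 58.7, Phgdh at 330.1, Ifi27 at 6892, mt-Nd2 at 5596 and Malat1 at 3963. In the same library the share of counts from mitochondrially encoded genes at 0.245% and the share of counts from cytosolic ribosomal protein genes at 2.66% also stood apart. In 12-month replicate 2 the values that stood apart were Col1a1 at 6.38 and Pdyn at 252. In 18-month replicate 2 the values that stood apart were Apoe at 9242, Agt at 266, C1qa at 941, Ctss at 1186, Slc6a5 at 1447 and Phgdh at 236. In 18-month replicate 3 the values that stood apart were Tagln2 at 368 and 9430037G07Rik at 26.7. In 18-month replicate 4 the values that stood apart were Ndufb2 at 1365, Keap1 at 2169, Cd59a at 4342, Cdkn2a at 455, Ddx3y at 3298 and Malat1 at 4101. In 18-month replicate 5 the value that stood apart was that of Neat1 at 1230. What these libraries have in common was not tested.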

How the results depend on the processing

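edgeR's count of 0 called genes was also 0 with DESeq2's size factors, without a filter on low counts, with a mean count of at least 50, with the filter taken over the 9 libraries, with a term for the library total and under gene length offsets. It was 97 with DESeq2's Wald test, 274 with limma voom, 1 with the 9 libraries alone (Gm11868) and 2 in the libraries over 20000000 counts (Tagln2 and Gm10709). Leaving out 1 library at a time it ran from 0 to 12: 12 without 18-month replicate 5, 6 without 12-month replicate 1, 1 without 18-month replicate 3 and 0 otherwise. For alternatives chosen after seeing the data, it was 2 without 18-month replicates 1 and 3 (Rpl29 and Gm10709) and 5 without 12-month replicate 1 and 18-month replicate 4 (Leng8, Bhlhe22, Snhg11 and Miat among them). For the difference between the sexes, DESeq2's Wald test called 3 genes and limma voom 0. Replicate numbers shared between the ages did not pair the libraries, with correlations of same-numbered deviations of -0.145, 0.0311, 0.0904 and -0.251. With the replicate number as a block 0 genes were called and 1907 had an unadjusted p under 0.05. For named genes picked because their counts did not overlap, leaving out a single library left almost no room for a reversal. Of the 130 named genes, 88 kept their direction under every one of 22 alternatives, which include each library left out, and 42 had at least 1 reversal, in 115 of their values. Their log2 differences in the opposite direction follow. In libraries over 20000000 counts: Acp5 -1.29, Sparc -0.0206, Grm2 0.0736, Anxa1 -0.0838, Fosl1 -0.0418, Vim -0.28, Ctsk -0.22, Sox10 0.0843, Socs3 -0.21, Tac1 0.0824, mt-Nd5 -0.036, Hba-a1 -0.37, Bglap -0.66 and Xist -1.52. Without 18-month replicates 1 and 3: Acp5 -1.08, Apoe 0.12, Fosl1 -0.13, Cd63 0.0109, Atf3 0.057, Rgs5 -0.0536, Vim -0.15, Ctsk -0.38, Sox10 0.0568, Serpinb1a 0.0631, Sprr1a 0.21, Socs3 -0.12, Cxcl12 -0.0206, Tac1 0.0198, Hba-a1 -0.13, Bglap -0.43 and Xist -1.80. Without 12-month replicate 1 and 18-month replicate 4: Mnx1 -0.0273, Apoe 0.87, Ptgds 0.32, Vtn 0.11, Sdha -0.000801, Lcn2 0.37, Agt 0.47, Sox10 0.59, Serpinb1a 0.36, Hbb-bs 0.0335, Ifi27 0.0131, mt-Nd2 0.36, Ddx3y -0.30, Ighm 0.046 and Slc18a3 0.22. With limma voom: Apoe 0.46, Ptgds 0.47, Vtn 0.57, Sdha -0.0173, Cd63 0.00891, Atf3 0.10, Lcn2 0.30, Agt 0.16, Sox10 0.74, Serpinb1a 0.18, mt-Nd2 0.12, Uty -0.092, Ddx3y -0.23 and Slc18a3 0.0907. With the replicate block: Apoe 0.15, Sox10 0.20 and Hbb-bs 0.0175. With gene length offsets: Atf3 0.011, Sox10 0.0376, Hbb-bs 0.23, mt-Nd2 0.10, Ighm 0.0444 and Slc18a3 0.0759. With a term for the library total: Sox10 0.0774, Hbb-bs 0.34 and Slc18a3 0.0483. With a mean count of at least 50: Slc18a3 2.34e-05. With the 9 libraries alone: Slc18a3 0.00049. Leaving out 1 library at a time, the lowest and highest values were, for those with a reversal, percent of counts from mitochondrially encoded genes -0.0289 to 0.0345, Apoe -0.83 to 0.76, Ptgds -1.12 to 0.66, Vtn -1.23 to 0.34, Sdha -0.0237 to 0.0753, Slc5a7 -0.17 to 0.0658, Cd63 -0.34 to 0.18, Atf3 -0.36 to 0.64, Lcn2 -0.55 to 0.22, Agt -0.83 to 0.30, Cd59a -0.40 to 0.0342, Sox10 -0.28 to 0.49, Ppp1r1c -0.16 to 0.0383, Grin3b -0.15 to 0.91, C1qa -0.47 to 1.34, Ctss -0.28 to 1.51, Serpinb1a -0.41 to 0.46, Htr1b -0.30 to 0.00127, Sprr1a -0.83 to 0.88, Hbb-bs -0.33 to 0.34, Ifi27 -0.59 to 0.0146, mt-Nd2 -0.49 to 0.25, Uty -0.0551 to 0.36, Ddx3y -0.18 to 0.14, Ighm -0.23 to 0.0797, Malat1 -0.20 to 1.40 and Slc18a3 -0.16 to 0.20. The cause of these reversals was not tested. At these totals a normalized count near 1 stands for about 1 read, so values of genes such as Bglap outside 18-month replicates 1 and 3 rest on single reads.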
